A study of Homo sapiens with 6 samples.

Results

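The regions described here are stretches of chromatin between annotated genes from which TAF2 with a V5 tag was pulled down in more than 1 library of HepG2 cells, a human hepatocellular tumour line that keeps much of the hepatocyte programme. They came from chromatin immunoprecipitation and sequencing (ChIP-seq) of a HepG2-TAF2-V5 line that the labels call a clone, so all libraries share 1 line. The V5 immunoprecipitation gave 3 libraries, called V5 replicates 1, 2 and 3. The 3 control libraries from the same line are called input by treatment, Input DNA by title and IgG by library name. No control entered a comparison here, so no value below has a background measured in a control beside it, and whether the replicates were separate cultures is not stated. Overlapping peaks of the V5 libraries (1 bp or more) were joined into regions, of which those holding peaks from 2 or 3 libraries were called reproducible. It was called intergenic where the summit of its strongest peak, by the authors' fold enrichment, lay more than 1000 bp outside the span of every annotated RefSeq gene of any type. That left 307 intergenic regions of the 1355 reproducible regions on chromosomes 1 to 22 and X (22.7%), which were themselves 36.3% of 3736 merged regions there. The overlap of libraries, the fold and the summit chose these regions, so those values are given as descriptions.

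TFIID is the multiprotein complex that recognises core promoters and nucleates the RNA polymerase II preinitiation complex, and TAF2 is part of it. In structures of human TFIID on promoter DNA, TAF2 lies with TAF1 on the downstream side of the start site, while the TATA-binding protein (TBP) subunit contacts the upstream TATA region. TFIID is best known at gene starts. Distal regulatory elements can also be transcribed and can load general factors, and enhancers often contact the promoters they regulate across intervening DNA. Chromatin immunoprecipitation can recover DNA that the protein touches directly and DNA held to it through other proteins, and peaks do not separate these.

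For 7 genes, an intergenic region lay within 20 kb of an annotated start and peaks of at least 2 V5 libraries also overlapped a window from 250 bases before to 50 after that start. An annotated start lay within 20 kb of 77 of the 307 intergenic regions, a count of regions and not of genes. Over all 22155 such windows of protein-coding genes, peaks of 2 or 3 libraries overlapped 0.650%. Core promoter sequences of the 7 genes are shown because they are where an intergenic region and a start were recovered in the same immunoprecipitation. They were chosen after the values were seen. No genome sequence was used here, so the intergenic regions themselves are given by position. Each sequence runs 5′ to 3′ from 100 bases before the start through the first 30 transcribed bases, is credited to RefSeq on GRCh38.p14, and has in capitals each match, on either strand, to the TATA box core TATAAA, to the CCAAT box (those 5 letters) or to the GC box core GGGCGG.
CCL20: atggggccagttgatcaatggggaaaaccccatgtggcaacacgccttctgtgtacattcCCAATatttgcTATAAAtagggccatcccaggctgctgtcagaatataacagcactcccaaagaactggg
GDF15: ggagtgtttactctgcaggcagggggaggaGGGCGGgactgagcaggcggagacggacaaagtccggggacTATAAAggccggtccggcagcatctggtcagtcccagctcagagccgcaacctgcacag
ID1: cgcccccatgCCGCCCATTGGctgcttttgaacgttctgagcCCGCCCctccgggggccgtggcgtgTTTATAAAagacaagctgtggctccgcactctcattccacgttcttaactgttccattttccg
XBP1: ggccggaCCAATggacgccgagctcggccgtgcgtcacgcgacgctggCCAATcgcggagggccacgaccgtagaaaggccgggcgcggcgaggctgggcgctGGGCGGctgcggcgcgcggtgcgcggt
TFDP1: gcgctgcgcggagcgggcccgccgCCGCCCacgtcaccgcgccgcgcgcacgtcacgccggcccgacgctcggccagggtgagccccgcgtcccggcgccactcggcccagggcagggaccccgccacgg
TRIM71: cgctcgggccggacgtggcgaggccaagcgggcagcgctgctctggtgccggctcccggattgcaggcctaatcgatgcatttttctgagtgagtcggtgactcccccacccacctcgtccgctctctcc
FAM169A: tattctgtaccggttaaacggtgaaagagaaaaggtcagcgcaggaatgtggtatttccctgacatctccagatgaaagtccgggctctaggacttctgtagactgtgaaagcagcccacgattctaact
CCL20, a chemokine gene, lies at chr2:227813742-227813871 on the plus strand. GDF15, which encodes a stress-induced cytokine, lies at chr19:18386058-18386187 on the plus strand, and ID1, an inhibitor of basic helix-loop-helix factors, at chr20:31605189-31605318 on the plus strand. XBP1, a transcription factor of the unfolded protein response, lies at chr22:28800540-28800669 on the minus strand. TFDP1, a partner of the E2F factors, lies at chr13:113584653-113584782 on the plus strand, TRIM71, a developmental RNA-binding protein gene, at chr3:32817897-32818026 on the plus strand, and FAM169A at chr5:74866937-74867066 on the minus strand.

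TATAAA was found in 3 of these 7 sequences, and in 5.27% of all 22155 windows of the same length. It began 29 bases before the start in CCL20 and GDF15 and 31 bases before it in ID1, where a match on the opposite strand overlapped it. CCAAT was found in 3 of the 7 sequences and in 21.1% of all windows. The GC-box core GGGCGG was found in 4 of the 7 and in 43.2% of all windows. FAM169A and TRIM71 held none of the 3 motifs in this stretch. These matches describe letters only, and the 7 genes are too few and were chosen too late for a comparison.

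At ID1, XBP1 and CCL20, regions away from the start had higher folds than the start in most libraries. A fold here is the authors' enrichment of a peak over the background of their caller, and it ranks peaks only within a library. Around ID1 there were 3 intergenic regions, all in 3 libraries. At chr20:31608418-31608931, 3446 bp from the ID1 start on its 3′ side, the folds were 6.50, 7.95 and 7.24 in V5 replicates 1, 2 and 3. At chr20:31610615-31611029, 5526 bp from the start, they were 5.92, 8.69 and 8.44, with the same summit in every library. The region on the other side of ID1, chr20:31595983-31596309, lay 9100 bp before the start and had 3.74, 5.89 and 6.02. The ID1 start itself had no peak in replicate 1 and had folds of 5.11 and 5.78 in replicates 2 and 3. So the regions past the 3′ end of ID1 were stronger than its start in both libraries that held a peak at the start.

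Upstream of XBP1 lay a row of 3 regions over 5.385 kb. The region at chr22:28808801-28809200, 8335 bp upstream of the nearest start, had folds of 4.78, 4.66 and 6.86 in V5 replicates 1, 2 and 3. The region at chr22:28811747-28812086, 11276 bp upstream, had 5.24 and 5.26 in replicates 1 and 2 and no peak in replicate 3. The outermost, chr22:28813852-28814185, lay 13367 bp upstream and had 5.41, 6.51 and 5.05. The XBP1 start had 4.47, 4.54 and 7.63. In replicates 1 and 2 each upstream region was above the start, and in replicate 3 the start was above both upstream regions that had a peak.

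At GDF15 neither upstream region stood above the start in V5 replicate 2. The region 5990 bp upstream, chr19:18380104-18380454, had folds of 5.34 and 4.90 in replicates 2 and 3, and the region 11594 bp upstream, chr19:18374458-18374745, had 4.08 and 5.83. The GDF15 start had 6.73, 5.48 and 5.46 in replicates 1, 2 and 3. Neither upstream region had a peak in replicate 1, and in replicate 3 the start lay between them. Past the 3′ end of CCL20, chr2:227818708-227819064 had 4.82, 6.75 and 6.68, each above the 4.20, 4.10 and 4.29 at the CCL20 start.

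At TFDP1 the folds of the intergenic region varied less between libraries than those of the start. The region chr13:113582975-113583957, 1684 bp before the start, had folds of 6.13, 6.89 and 6.36, while the start had 10.5, 4.80 and 3.90. At 983 bp it was the widest of the 307 regions, and its summits lay up to 608 bp apart between libraries, also the most of any. Its 3 folds thus come from different positions. The region ended 731 bp from TFDP1, and another reproducible region lay 169 bp from it. The TRIM71 region, chr3:32816411-32816978, lay 1481 bp before the start and changed most among libraries of the regions in 3 libraries, with 2.94, 7.05 and 2.92. The TRIM71 start had 7.76 and 6.34 in replicates 1 and 3 and no peak in replicate 2. Start and upstream region thus swapped places between libraries at TRIM71. The FAM169A region, chr5:74877611-74877838, had 5.07 and 6.19 in replicates 1 and 2, and its start 10767 bp away had 5.13 and 4.45 in replicates 2 and 3.

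The strongest intergenic regions were chosen by their mean rank. Ranks are given as the percentile of a peak's fold within its own library, with 100 for the strongest, and as a mean ± SD over the libraries with a peak. The 20 strongest regions in 3 libraries had mean percentiles of 88.5 to 99.1 and folds of 5.83 to 15.6, and their lowest percentile in any library was 72.2. They lay on 12 chromosomes, and 15 of the 20 had summits within 50 bp of each other in all libraries. A protein-coding gene lay within 100 kb of 15 of them. At 7 of the 20, next to 6 genes, the nearest protein-coding gene itself held peaks of at least 2 libraries in other reproducible regions, as at 81 of all 307 intergenic regions (26.4%). Those are shares of regions, at any distance from the gene. Counted by gene, within 100 kb, it held for 53 of 207 (25.6%), against 3.19% of all protein-coding genes.

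**Figure D1:**
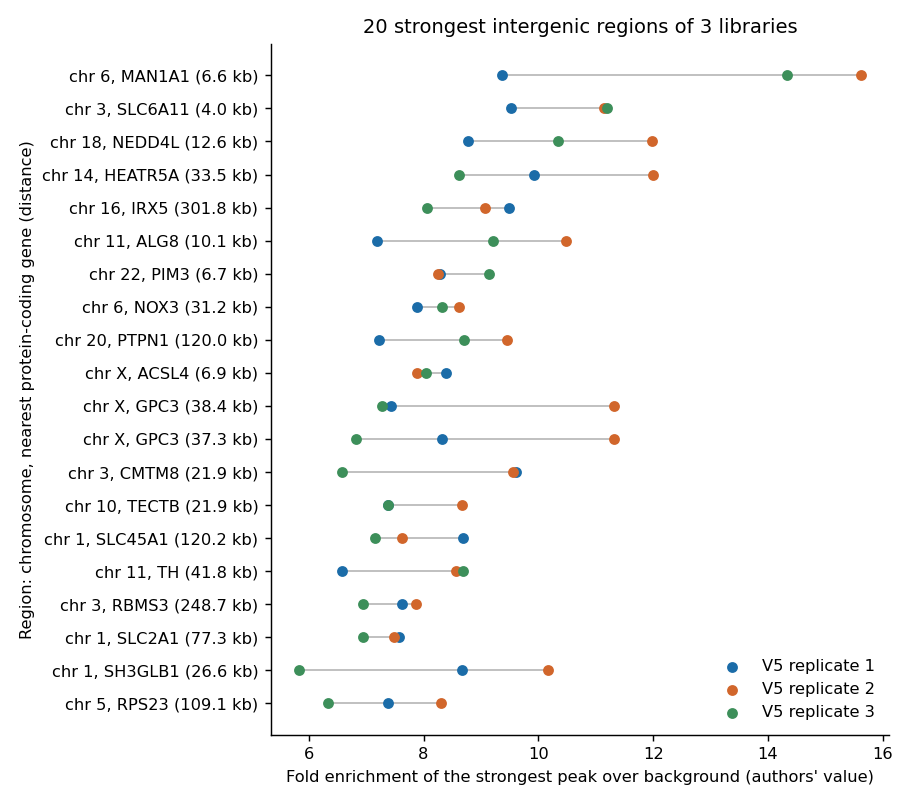
Fold enrichment of the 20 strongest intergenic regions with peaks in 3 libraries, by V5 replicate. Each row is a region named by its nearest protein-coding gene, each point is the strongest peak of 1 library, and the MAN1A1 region at the top reached 15.6 in replicate 2.

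The strongest was at chr6:119170378-119171203, 6620 bp past the 3′ end of MAN1A1, which encodes a Golgi mannosidase that trims N-linked glycans. Its folds were 9.36, 15.6 and 14.3 in V5 replicates 1, 2 and 3, and its percentile averaged 99.1 ± 1.09 (SD, n = 3). All 3 libraries placed the summit at the same base. The next, chr3:10812055-10812654, lay 3961 bp before the start of the GABA transporter gene SLC6A11 and had folds of 9.52, 11.2 and 11.2. The region chr18:58413801-58414405 lay 12627 bp past the 3′ end of NEDD4L, a ubiquitin ligase gene, and had 8.78, 11.97 and 10.3. All 3 regions ranked above the 95th percentile in each library.

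Among the nearest protein-coding genes of the 20 strongest regions, GPC3 alone was on a gene list used below. GPC3 encodes glypican 3, an oncofetal proteoglycan used as a marker of hepatocellular carcinoma, and 2 of the 20 strongest regions lay side by side beyond it. The region chrX:134023889-134024174, 38425 bp from GPC3, had folds of 7.44, 11.3 and 7.27 in V5 replicates 1, 2 and 3. Its neighbour chrX:134022655-134023032, 37252 bp from GPC3, had 8.31, 11.3 and 6.82. By percentile within each library, both were highest in replicate 2. GPC3 itself held peaks of 3 libraries in reproducible regions. The region chrX:109739932-109740330 lay 6917 bp before the start of ACSL4, which activates arachidonic acid, and had 8.39, 7.89 and 8.05. With these, chromosome X gave 3 of the strongest 20, of which the 2 beyond GPC3 lay 857 bp apart at 1 locus. It held 7 of all 307.

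Past the 3′ end of the kinase gene PIM3, chr22:49970650-49971053 had folds of 8.29, 8.26 and 9.14. The region chr11:78090715-78090948 lay 10141 bp from ALG8, which adds glucose to the precursor of N-linked glycans, and had 7.18, 10.5 and 9.22. Between GPAM, which starts glycerolipid synthesis, and TECTB, chr10:112261313-112261739 had 7.38, 8.68 and 7.39. These 3 regions ranked between percentiles of 89.7 and 98.2 in each library. Other strong regions lay far from any protein-coding gene, as at chr16:54628887-54629139 between the homeobox genes IRX3 and IRX5, 301809 bp from IRX5, with 9.50, 9.08 and 8.05. The region chr1:43036015-43036470, 77344 bp before the start of the glucose transporter gene SLC2A1, had 7.57, 7.49 and 6.95.

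Among regions with peaks of 2 libraries, the strongest lay next to CEBPA, a transcription factor of hepatocyte identity. The region chr19:33276038-33276350, 23696 bp from CEBPA on its 3′ side, had folds of 8.30 and 7.75 in V5 replicates 2 and 3 and no peak in replicate 1. Before the start of SELENOP, the plasma selenium carrier made by the liver, chr5:42824395-42824766 had 7.38 and 8.18 in replicates 2 and 3. Between SLC35E3 and MDM2, the gene of the ubiquitin ligase that limits p53, chr12:68787480-68787809 had 8.41 and 7.35 in replicates 1 and 2. Of the 5 strongest regions of this kind, 4 lacked a peak in replicate 1, as did 78 of all 159 in 2 libraries (49.1%). Among other reproducible regions in 2 libraries, 266 of 579 lacked it, so this was not particular to intergenic regions. Replicate 1 was the library with the fewest peaks (1599, against 2557 in replicate 2 and 1887 in replicate 3). A missing peak says only that none was listed at that place.

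The nearest protein-coding genes were compared with gene lists. A gene counted where it was the nearest one to an intergenic region and lay within 100 kb, which held for 207 of 19970 protein-coding genes (1.04%). The lists were chosen with earlier results of these data known, so the counts are descriptions. Of 58 plasma protein and apolipoprotein genes, 7 were counted (12.1%, exact 95% interval 4.99 to 23.3): AFP, APOB, APOC1, C3, FGG, ITIH2 and TTR. Of 41 liver cancer genes, 6 were counted (14.6%, 5.57 to 29.2): AFP, AXIN2, DLK1, GPC3, NKD1 and TRIM71. Of 37 hepatocyte transcription factor genes, 4 were counted (10.8%, 3.03 to 25.4): CEBPA, HHEX, PROX1 and TBX3. AFP stood in both of the first lists.

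The other lists gave smaller counts. Immediate early genes had 2 of 38 (5.26%, 0.644 to 17.7: PIM1 and TRIB1), NRF2 target and stress defence genes 1 of 32 (3.13%, 0.0791 to 16.2: AKR1C1), and genes of neurons, muscle and blood 1 of 55 (1.82%, 0.0460 to 9.72: LYZ). Every list given here with a counted gene was thus above the share over all protein-coding genes, liver lists or not, and the intervals of these last 3 contain it. No gene of 41 for sterol and fatty acid synthesis was counted, for which the interval reached 8.60%, nor any of 17 TFIID subunit genes, for which it reached 19.5%. Those intervals contain the share over all genes, and lists of this size could not show a depletion below it.

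The plasma protein regions were of middle strength: 8 regions, 4 of them in 3 libraries, with mean percentiles of 23.6 to 82.3 and a median of 64.7, against 59.1 over all 307. AFP encodes alpha-fetoprotein, the fetal albumin relative that many liver cancers make again. Its region, chr4:73432535-73432971, lay between ALB and AFP, 3472 bp before the AFP start and 11267 bp past ALB, with folds of 5.62 and 5.81 in V5 replicates 1 and 2 and no peak in replicate 3. TTR encodes transthyretin, and chr18:31587621-31587831, 4204 bp from it, had 7.24 and 6.24 in replicates 1 and 2. Before the start of FGG, which encodes the gamma chain of fibrinogen, chr4:154617669-154618225 had 5.91, 7.56 and 4.63 over the 3 libraries. The region chr2:21056439-21056865, 12484 bp from APOB, the structural protein gene of very low density lipoprotein, had 4.76, 7.37 and 5.60. By percentile the regions near FGG and APOB were highest in replicate 2, while those near TTR and AFP lacked a peak in replicate 3. AFP itself held peaks of 3 libraries in other reproducible regions.

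PROX1, a homeobox factor of liver development, had the transcription factor region with peaks in 3 libraries. At chr1:214050599-214051250, 9259 bp from PROX1, the folds were 6.58, 6.76 and 6.94 in V5 replicates 1, 2 and 3, at percentiles of 84.8, 81.5 and 87.5. The library summits there lay up to 405 bp apart, so these folds do not all come from the same position. HHEX and TBX3, both needed for the early liver bud in the mouse, had regions in V5 replicates 2 and 3 alone, with 5.50 and 4.91 at chr10:92697780-92698255 and 6.58 and 5.07 at chr12:114656198-114656539. DLK1, an imprinted gene of fetal liver, had 7.13 and 6.64 in the same libraries at chr14:100751028-100751447. AXIN2 and NKD1 are feedback inhibitors of Wnt signalling. The AXIN2 region, chr17:65588366-65588649, had 6.84 and 4.63 in replicates 2 and 3, and the NKD1 region, chr16:50467986-50468453, had 3.96, 6.91 and 6.81. Of the factor and cancer gene regions named here, those near CEBPA, HHEX, TBX3, DLK1 and AXIN2 thus had no peak in replicate 1. AXIN2 itself held peaks of 3 libraries in other reproducible regions.

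A region near LYZ, the lysozyme gene of myeloid cells, came from the list of genes of other cell types. At chr12:69332722-69333352 the folds were 4.21, 6.92 and 6.95. The AKR1C1 regions, upstream of a gene of steroid and xenobiotic reduction, were at chr10:4957029-4957309 with 6.29 and 5.73 in V5 replicates 1 and 3 and at chr10:4947063-4948011 with 5.07 and 4.95 in replicates 1 and 2. The immediate early gene regions were weak, with mean percentiles of 25.3 near PIM1 and 21.5 near TRIB1.

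Intergenic regions came in rows at some loci. There were 16 rows of 3 or more intergenic regions with gaps of at most 100 kb, which held 54 of the 307 (17.6%), and 5 of the rows were on chromosome 20. Rows of other reproducible regions were not counted, so whether rows are more common here is not known. A reproducible neighbour within 10 kb was less common for intergenic regions (29.6%) than for others (38.4%). Between CEBPB, a liver acute phase transcription factor gene, and PTPN1, a phosphatase gene of insulin signalling, 5 regions over 71.517 kb had folds of 4.40 to 9.45. The strongest of them, chr20:50390238-50390640, had 7.23, 9.45 and 8.71 in V5 replicates 1, 2 and 3. Beyond IRF2BP2, 4 regions over 110.682 kb had folds of 4.06 to 7.56. Other rows lay near ERRFI1, EML4, SNX5, CYP24A1 and FOXQ1. Regions of 1 row share a locus and are not independent of each other.

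A row on chromosome 16 differed from the rest in kind. At chr16:46386351-46398824, in the gene-free stretch beside the centromere, 6 regions over 12.474 kb all had peaks in 3 libraries. Their folds ran from 1.75 to 2.70, with mean percentiles by fold of 0.249 to 1.39, at the bottom of each list. Their -log10 q, the authors' significance value, ran from 17.9 to 173, at percentiles of 97.3 to 99.9. So the peaks with nearly the lowest enrichment were among the most significant, with summits within 24 bp between libraries. At the first of them, chr16:46386351-46386526, the folds were 2.55, 2.70 and 2.46 and the -log10 q was 173, 156 and 143. One more intergenic region, chr21:10272473-10272871, shared this pattern, with folds of 2.72, 2.69 and 2.17, -log10 q of 105, 81.6 and 48.1, and the same summit in every library. All 7 intergenic regions with a mean fold percentile under 5 were also above the 95th percentile by -log10 q, while none of the 1048 other reproducible regions met both limits.

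**Figure D2:**
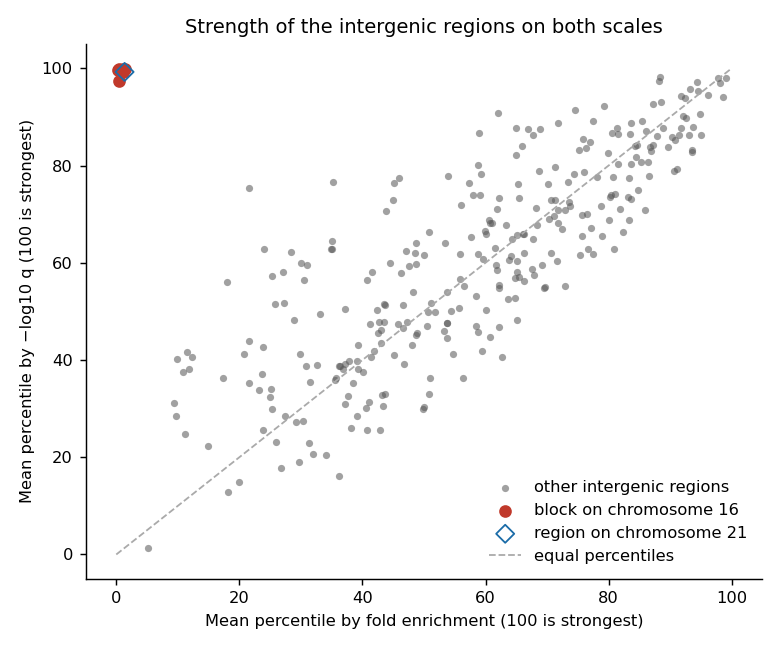
Mean percentile by -log10 q (vertical) against mean percentile by fold (horizontal) for the 307 intergenic regions, each taken within the library and averaged over the libraries with a peak, with a dashed line where they are equal. The 6 regions on chromosome 16 and 1 on chromosome 21 sit at the upper left, under a fold percentile of 5 and above a -log10 q percentile of 95, apart from the other intergenic regions.

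How often intergenic regions were found again was compared with the 1048 other reproducible regions. Peaks of 3 libraries were present at 148 of 307 intergenic regions (48.2%, exact 95% interval 42.5 to 54.0) and at 469 of 1048 other regions (44.8%, 41.7 to 47.8), and at 45.5% of all reproducible regions. The intervals overlapped, and the difference of 3.46 points was 6.36 without the 100 kb windows that held 5 or more peaks of a library. By class, the share was 45.9% inside protein-coding genes, 50.3% at genes of other types and 35.5% at the ends of protein-coding genes. Replicate 2 held nearly all intergenic regions: 229, 290 and 243 of the 307 had a peak in V5 replicates 1, 2 and 3. There were 17 intergenic regions (5.54%) in replicates 1 and 3 without replicate 2, against 117 other regions (11.2%).

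Regions were also defined and classed from 2 libraries and looked up in the remaining one. The regions recovered were nearly the same in each turn, those with peaks of all 3 libraries (148 intergenic). Recovery thus restates the overlap of libraries counted above, from the side of each library. Of intergenic regions defined without V5 replicate 1, 147 of 225 were recovered in it (65.3%, 58.7 to 71.5), against 64.3% of other regions (60.8 to 67.8) and 64.6% of both together. For replicate 2 it was 148 of 165 (89.7%, 84.0 to 93.9), against 80.2% (76.8 to 83.3) and 82.3% of both together. For replicate 3 it was 146 of 210 (69.5%, 62.8 to 75.7), against 70.9% (67.3 to 74.3) and 70.6% of both together. The gap to the other regions was widest in replicate 2, at 9.49 percentage points, where regions at genes of other types were recovered as often as intergenic ones (97 of 108, 89.8%). Over the 3 libraries it averaged 3.03 ± 5.72 percentage points (SD, n = 3), with p = 0.75 in an exact two-sided sign-flip permutation test and an adjusted p of 0.75. The smallest p that 3 libraries allow in this test is 0.25, so no difference could pass 0.05. The 3 values also share most of their recovered regions, so they are not independent and the p-value is a description. The adjustment covered the 2 measures tested, recovery and peak width. Without the 100 kb windows that held 5 or more peaks of a library, the average difference was 6.07 points. Those windows were found from all 3 libraries, the one left out included.

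**Figure D3:**
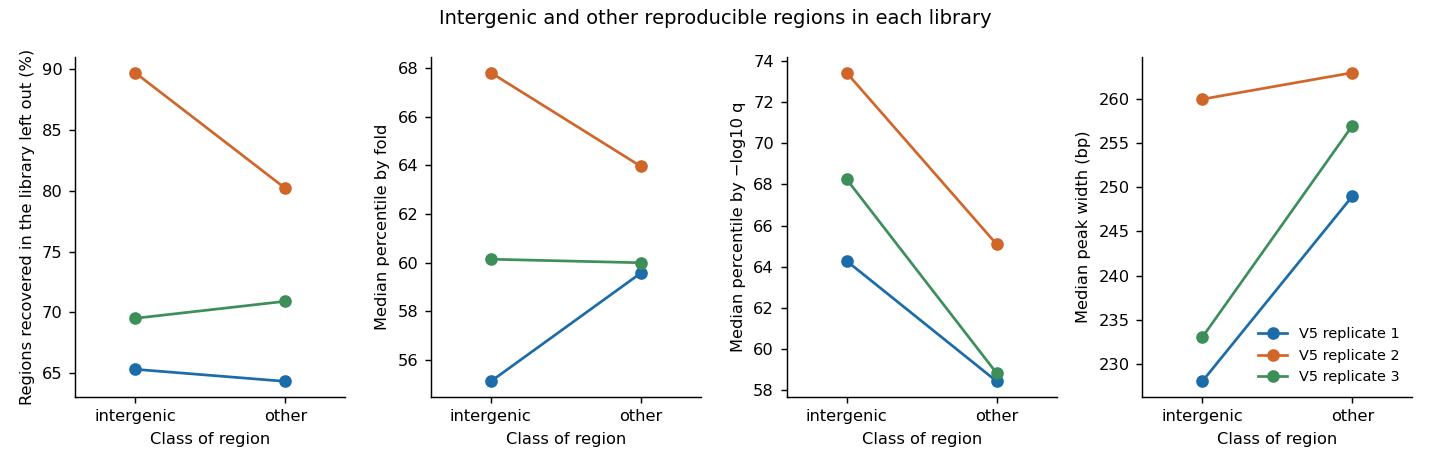
Values of intergenic regions beside the other reproducible regions in each V5 replicate, for recovery in the library left out, median percentile by fold, median percentile by -log10 q and median peak width. Intergenic regions were above the others in all 3 libraries by -log10 q and below them in all 3 by width, while recovery and fold percentile changed sign between libraries.

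By fold, intergenic peaks ranked lower than peaks in other reproducible regions in V5 replicate 1 and higher in replicates 2 and 3. The median percentile of intergenic peaks was 55.1, 67.8 and 60.1 in V5 replicates 1, 2 and 3, against 59.6, 64.0 and 60.0 for the others. The difference averaged -0.153 ± 4.16 percentile points (SD, n = 3), and it is given without a test because the fold took part in the choice of regions. By -log10 q, intergenic peaks ranked higher in 3 of 3 libraries, at 64.3, 73.4 and 68.3, against 58.4, 65.1 and 58.8. That difference averaged 7.87 ± 1.83 points (SD, n = 3), also a description. It was not particular to intergenic regions, since regions at genes of other types stood at 65.5, 71.4 and 67.2. The top of the scale belonged to other regions, since the highest intergenic fold was 11.4, 15.6 and 14.3 in the 3 libraries, against 25.2, 27.3 and 30.8. A mean percentile of at least 90 was reached by 24 intergenic regions (7.82%) and by 92 other regions (8.78%), beside 8.56% of all.

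Intergenic regions were narrower than the other reproducible regions as a whole, but about as wide as regions at the ends of protein-coding genes. Their median width was 307 bp, with quartiles of 252 and 399 bp and a range of 156 to 983 bp, against a median of 351 bp and a maximum of 9849 bp for other reproducible regions. No intergenic region was wider than 1000 bp, while 78 other regions were. Several peaks of a library fell into 6 intergenic regions (1.95%) and 87 others (8.30%). At the ends of protein-coding genes the median width was 312 bp and the share with several peaks 2.00%. The median peak width was 228, 260 and 233 bp in V5 replicates 1, 2 and 3, against 249, 263 and 257 bp in other regions and 228, 246 and 245 bp at the ends of protein-coding genes. The difference averaged -16.0 ± 11.4 bp (SD, n = 3), lower in 3 of 3 libraries, with an exact sign-flip permutation p of 0.25 and 0.50 after adjustment. Overlap of peaks depends on their width, so width took part in the choice of regions and this p-value is a description. Without the 100 kb windows that held 5 or more peaks of a library, the difference was 3.17 bp. Libraries placed the summit of an intergenic region a median of 44 bp apart, against 69 bp for other regions, and within 50 bp at 168 (54.7%), against 419 (40.0%).

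The rank of an intergenic region often changed between libraries. Among the 148 intergenic regions in 3 libraries, the range of percentile over libraries had a median of 29.5 points, against 29.2 for other regions in 3 libraries. It was under 20 points at 49 of the 148 and over 50 at 41. The highest percentile fell in V5 replicate 1 at 43, in replicate 2 at 63 and in replicate 3 at 42. Apart from TRIM71, wide ranges were seen near RAB31, at chr18:9869737-9870146, with folds of 6.59, 4.91 and 3.35, and near PLS3, at chrX:115732424-115732595, with 2.60 and 7.55 in replicates 1 and 3.

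Most intergenic regions lay near a gene of some type. The distance from the summit to the nearest gene had a median of 9551 bp, with quartiles of 4598 and 21887.5 bp and a range of 1059 to 199041 bp. A gene lay within 5000 bp of 79 regions (25.7%), within 10000 bp of 158 (51.5%) and within 50000 bp of 286 (93.2%). The nearest gene was protein-coding at 120 regions (39.1%), a long non-coding RNA gene at 108 (35.2%), a pseudogene at 69, 13 of them transcribed pseudogenes, and a microRNA gene at 6. Beside the long non-coding RNA gene NEAT1, the scaffold of nuclear paraspeckles, lay chr11:65418655-65419421 with folds of 3.69, 5.98 and 5.34 and chr11:65421238-65421624 with 5.78 and 4.92 in V5 replicates 2 and 3.

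**Figure D4:**
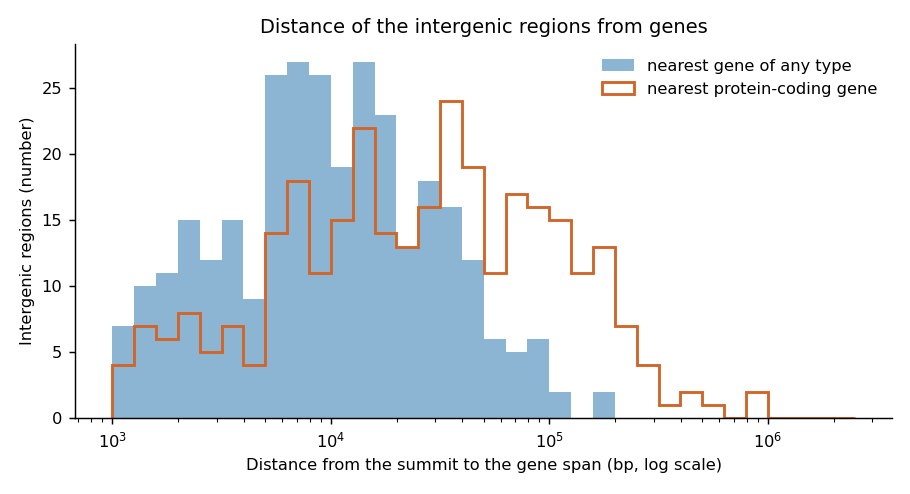
Distance from the summit of each of the 307 intergenic regions to the nearest gene of any type and to the nearest protein-coding gene, in bp on a log axis. The medians were 9551 bp for genes of any type and 26889 bp for protein-coding genes, and no summit lies within 1000 bp because the definition leaves those out.

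The nearest protein-coding gene lay a median of 26889 bp away and within 100 kb of 251 regions (81.8%), which named 207 genes, 38 of them more than 1 time. Of 227 regions whose gene has a known strand, 128 faced the start (56.4%, 49.7 to 62.9) and 99 the 3′ end. The interval contains 50, so neither side stood out at this number. The nearest gene itself held a separate reproducible region, over its span or within 1000 bp, at 53 of the 207 genes (25.6%), against 3.19% of all protein-coding genes. Those regions came from the same libraries, so this is a description of where peaks cluster.

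Intergenic regions had a neighbour about as often as other reproducible regions did. Another reproducible region lay within 100 kb of 175 intergenic regions (57.0%, 51.3 to 62.6) and of 581 other regions (55.4%, 52.4 to 58.5), beside 55.8% of all. The difference of 1.56 points was 6.14 without the 100 kb windows that held 5 or more peaks of a library. Within 10 kb the shares were 29.6% and 38.4%. The farthest from any gene was chr1:88175860-88176109, 199041 bp away, with folds of 4.81 and 6.35 in V5 replicates 1 and 2. The region chr3:81300358-81300653 lay 189200 bp from GBE1, the glycogen branching enzyme gene, and was found in 3 libraries with 5.23, 5.07 and 6.58.

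The regions were spread unevenly over chromosomes. Over 1118.87 Mb of intergenic space, without gene-free stretches above 1 Mb, there were 2.74 intergenic regions per 10 Mb. Regions in those stretches were still counted, although their space was not. Chromosomes 20 and 19 had 10.5 and 9.37 per 10 Mb, while chromosomes 13 and X had 0.218 and 0.832. Chromosome 16 had 8.49, but this counts the row of 6 beside the centromere, so its place by density is not settled. Chromosome 20 held 27 of the 307 (8.79%, 5.88 to 12.5), against 6.30% of other reproducible regions (4.90 to 7.94), and it holds 2.30% of the space. Chromosome 16 held 24 (7.82%, 5.07 to 11.4), against 3.91% of others (2.82 to 5.27), and 2.53% of the space. Without the row of 6 beside the centromere it held 18 of 301 (5.98%, 3.58 to 9.29). Beside other regions chromosome 17 went the other way, with 13 intergenic regions (4.23%, 2.27 to 7.13), against 8.40% of others (6.79 to 10.2). By space it did not, since it holds 2.13% of the space and had 5.45 intergenic regions per 10 Mb, above the 2.74 over all chromosomes. The intervals cover counting error only and treat neighbouring regions as separate.

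**Figure D5:**
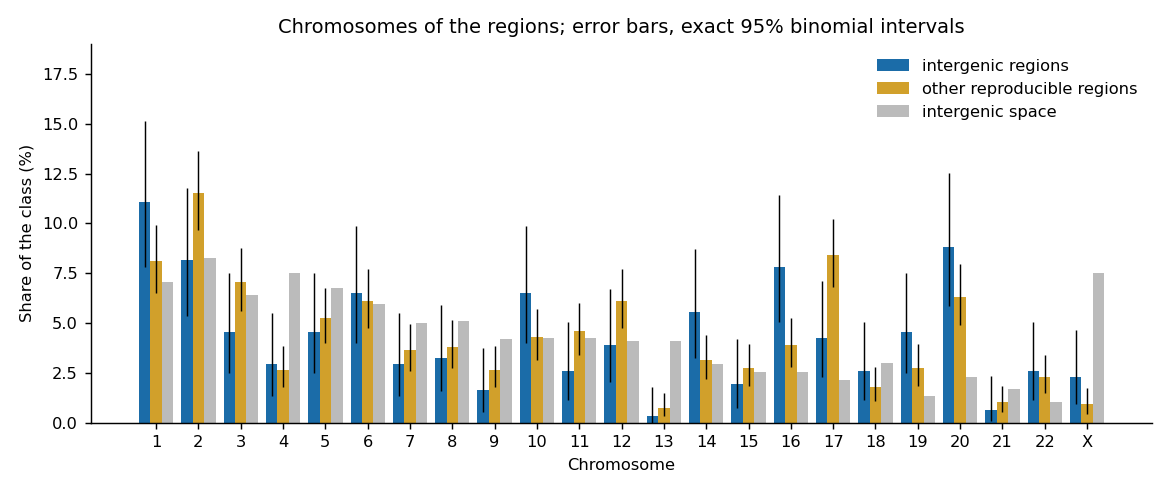
Share of the intergenic regions, of the other reproducible regions and of the intergenic space that lies on each chromosome, in percent, with exact 95% binomial intervals as error bars. On chromosome 20 the shares were 8.79%, 6.30% and 2.30%. On chromosome 17 the intergenic share of 4.23% was below the 8.40% of other regions but above the 2.13% of the space. The space leaves out gene-free stretches above 1 Mb, but regions in them are counted.

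The regions nearest the edge of the definition were few and are given as they stand. Just outside the 1000 bp limit lay summits 1059 bp from ZMYND8, with folds of 3.24 and 4.28 in V5 replicates 2 and 3, 1060 bp from IRF2BP2, with 5.90 and 4.06, and 1075 bp from GRB7, with 5.09 and 4.28. Just within it, and so not counted as intergenic, were summits 926 bp from the pseudogene RPS3AP54, with 3.73 and 4.09 in replicates 1 and 2, 884 bp from SNRPEP4, with 8.23 and 11.3, and 880 bp from GOT1, with 5.05 and 8.28.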

How the data were processed

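The 6 libraries, 3 from the V5 immunoprecipitation and 3 controls, were grouped by their titles, and analysis started from the V5 libraries' peak lists. The build was GRCh38, per the submitters' processing notes. What aligned the reads and called the peaks, at which threshold and over which control, is not given in the sources used here. Every deposited list has the narrowPeak layout. The authors' fold is a linear ratio over their caller's background. The deposited -log10 p and -log10 q are the authors' significance values, and -log10 p was not used. The deposited score was not used. Summits came from the deposited offset, counted from the first base of a peak. Read numbers are not part of the lists, which leaves depth unknown, and values were compared by rank within each library.

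Merging, classes and distances were computed with Python 3.11.15, numpy 2.4.6, pandas 2.3.3 and scipy 1.17.1, figures with matplotlib 3.10.9, and the code was tested on simulated data. Genes were RefSeq spans of GRCh38.p14. Promoter entries matched 178 of 244 nearest genes. Tests were exact two-sided sign-flip permutations over libraries, with Benjamini-Hochberg adjustment over 2 measures, while 95% intervals are Clopper-Pearson ones for counting error alone. The planned test of the fold percentile was dropped, since the fold helped to choose the regions. The p-values measure only the spread between these libraries, which may be technical. Recovery and peak width both depend on the overlap of peaks that chose the regions, so their p-values are descriptions. The regions, lists and tests were chosen with earlier results of these data known, and the result of 1 list is not reported here. The text names the 20 strongest regions in 3 libraries, the 5 strongest in 2, the 5 widest, the 5 farthest from genes, 3 on each side of the 1000 bp limit, the 3 least even between libraries, rows of 3 or more, and up to 4 regions for each gene list, with some given by range or count; the regions printed beside promoters, and others named after their values were seen, are outside that rule. Alternatives were stricter peaks, a 5000 bp limit, the whole region outside genes, a 50% overlap, all 3 libraries, no dense clusters and each replicate left out.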

Additional observations from a re-analysis of the deposited data

Results flagged for a closer look

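A signal in data outside the comparisons was seen on sequences that belong to no assembled chromosome. There were 24 reproducible regions on 7 unplaced or unlocalised contigs, of which 19 had peaks in 3 libraries, and no control list was used here to set beside them. On 4 unplaced contigs the folds of the strongest peaks ran from 1.82 to 2.13, and on the unlocalised contig of chromosome 22, which held 13 of the 24, from 3.30 to 7.22. A further 11 reproducible regions were mitochondrial.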

How the results depend on the processing

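No paired analysis was possible because pairing V5 with control libraries by number needs control peak lists, and none was used here. The sign-flip tests pair region classes within each V5 library. Of 93 recomputed values, 8 changed sign and 17 moved beyond their error or by over 1.5 times for a count. The other 68 showed no such change by the check used for them, though some changed in size. The recovery and width differences were checked for sign alone, not against their error, so widths of -28.5 and -36.0 bp are among the 68. The difference in percentile by fold, -0.153 points, changed sign when summits lay over 5000 bp from genes (2.08), when the whole region lay outside genes (0.0657), without dense clusters (2.88), without the row on chromosome 16 (0.945, chosen after seeing the data) and when ranked by -log10 q (7.87, likewise). With all 3 libraries required it was -2.45, and leaving out each replicate gave -2.30 to 1.73. The width difference became 3.17 bp without dense clusters, which also gave 6.07 points for recovery (main 3.03), 6.36 for the share in 3 libraries (3.46) and 6.14 for the share near another region (1.56). For recovery, the dense clusters were found with the left-out library included. Width was -28.5 bp with stricter peaks and -36.0 bp with all 3 libraries required. Peaks with -log10 q of at least 5 gave -4.76 percentile points by fold, 174 regions, a share of 26.0%, summits 34.5 bp apart, a difference of 8.69 points in the share near another region and 121 nearest genes. The 5000 bp limit gave a share of 16.8% and a median distance of 14706 bp. Regions in all 3 libraries numbered 148, with summits 53.5 bp apart, a difference of 7.33 points near another region and 102 genes. Leaving out each replicate gave 165 to 225 regions (165 without replicate 2), 116 to 156 genes (116 without replicate 2) and summits 29.0 to 34.0 bp apart, a measure that falls with fewer libraries. With 2 libraries the smallest sign-flip p is 0.50. The share in 3 libraries and the recovery in the library left out were not recomputed with replicates left out or with all 3 libraries required. The number of libraries, not known depth, limits every test. The cause of these changes was not tested.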

Other observations

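A few other intergenic regions are given by their nearest gene. They were picked after their values were seen and stand for no group. Before the start of MBL2, the mannose-binding lectin that hepatocytes secrete, chr10:52774660-52775038 lay 1987 bp away with folds of 6.07, 5.48 and 6.36 in V5 replicates 1, 2 and 3. Before the start of UGT2B15, which glucuronidates steroids and drugs, chr4:68732864-68733357 lay 62611 bp away with 4.80, 9.97 and 7.34. Near GSTA2, a glutathione transferase gene, chr6:52725864-52726072 had 6.57 and 6.87 in replicates 1 and 2. Near CYP2A7, chr19:40921150-40921508 had 4.24, 4.77 and 4.77. TRIB3, a stress-induced pseudokinase gene, had a region on each side: chr20:371916-372205 before its start with 6.93 and 5.94 in replicates 2 and 3, and chr20:401605-402137 past its 3′ end with 7.77, 5.01 and 4.98.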
